A study of Homo sapiens with 5 samples.

Results

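The smooth muscle contractile genes are 8 genes for the actin filament and myosin machinery that smooth muscle cells use to shorten. They were taken by symbol as ACTA2, ACTG2, TAGLN, CNN1, CALD1, TPM1, TPM2 and MYL9, and they make up 8 of the 57905 genes with counts. Each symbol stood for 1 gene identifier. Total RNA was sequenced in 5 libraries of SVG-10B1, a human cell line of astroglial origin grown in medium with 10% fetal calf serum. The edited cells carry the R132H substitution in 1 allele of IDH1 (R132H/WT) and comprise clone 2, with 1 library, and clone 6, with 2 libraries. The unedited wild-type line, which the labels number as clone 1, has 2 libraries. Each edited line is 1 clone and unedited clones other than this line were not analysed here, so effects of the edit and of the clone cannot be told apart. Replicates 1 and 2 of a line are written R1 and R2, and the labels do not say whether they come from separate cultures. The p-values therefore cover the spread among these libraries only, and that spread may be technical.

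In smooth muscle, contraction starts when calcium and calmodulin activate myosin light chain kinase, which phosphorylates the regulatory light chain of myosin. The filaments hold the actins encoded by ACTA2 and ACTG2, are stiffened by tropomyosins and are bound by calponin, caldesmon and transgelin. Most of these genes are known targets of the serum response factor SRF, which binds a DNA element called the CArG box and acts through the coactivators myocardin and the MRTF proteins. Some of the genes, such as the tropomyosins and caldesmon, are also made as non-muscle forms in many cultured cells.

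Reads assigned to genes came to 13572114 to 16559077 in the 3 edited libraries and to 17603317 and 21881726 in the wild-type libraries. The share of nuclear ribosomal RNA genes ran from 0.323 to 7.70% in edited libraries and was 1.75 and 5.50% in wild type. Clone 2 and the library labelled clone 6 R1 were closer to each other, with a coefficient of variation of 5.96% over genes, than the clone 6 pair (22.2%) or the wild-type pair (9.78%). In a chi-square test of their counts, which covers counting error only, the median over 14523 genes was 1.46 times the expected value and 1.60% of genes had an unadjusted p below 0.001, against 33.3% for the clone 6 pair and 13.4% for the wild-type pair. The labels were used as given, and whether these libraries were mixed up or the clones share an origin was not tested. Of 10 astrocyte markers, some were at or near 0: GFAP had 5 to 8 reads in edited libraries and 7 and 9 in wild type, AQP4 had 0 reads in all 5, and S100B had 1 read, in clone 2. The summed level of the 10 was 493 to 558 CPM in edited libraries and 215 and 224 CPM in wild type. GJA1, which encodes a gap junction protein, and CLU, which encodes clusterin, were called higher in the edited clones. NFIA was called lower, with a log2 fold change of -2.78 (edgeR adjusted p = 0.00339). Levels are CPM, reads of a gene scaled to a fixed total per library, with library sizes scaled by TMM, where 1 read was 0.0623 to 0.0768 CPM in edited libraries and 0.0463 and 0.0551 CPM in wild type. In RNA from whole cultures, fewer cells making a transcript and less of it per cell cannot be told apart.

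The contractile genes ACTA2, ACTG2, TAGLN, TPM1 and TPM2 were lower in the edited clones. The largest change at a well measured level was that of TAGLN, whose mean in edited libraries was 0.264 times the wild-type mean. CNN1 and CALD1 did not pass the test, and MYL9 was too low to be tested. Calls are genes whose p from edgeR's quasi-likelihood test, adjusted over all genes tested by Benjamini-Hochberg, was below 0.05, and every adjusted p comes from this test unless another is named. Of the 7 genes tested, 5 fell, 0 rose and 2 were not called, while 1 was higher and 5 were lower at an unadjusted p below 0.05, and DESeq2 called 4 genes. Across all 15500 genes tested, 18.4% were called, 10.2% as lower and 8.27% as higher in the edited libraries. In 6 of the 7 every edited library lay below both wild-type libraries, where 25.8% of all genes tested did, and in 0 of the 7 did every edited library lie above both, where 26.9% of all genes did. The median log2 fold change over the 7 genes was -0.61, against 0.02 over all genes tested. By library, the median difference from the wild-type mean was -0.47 in clone 2, -0.51 in clone 6 R1 and -0.88 in clone 6 R2, and it was 0.02, 0.02 and -0.0050 over all genes in the same libraries.

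**Figure D1:**
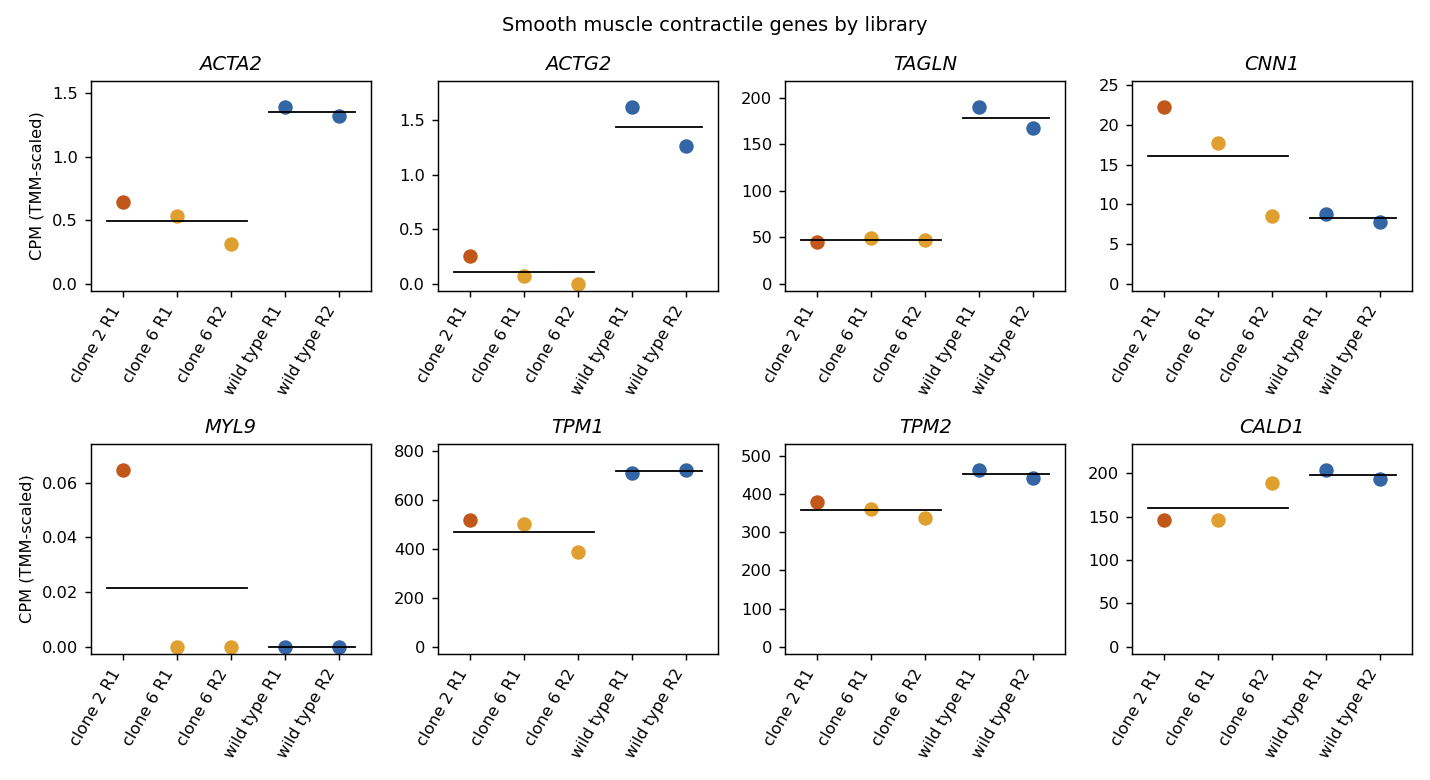
Level of each contractile gene in CPM on TMM-scaled library sizes, with 1 point per library, edited libraries left of wild type, and a line at the mean of the edited and of the wild-type libraries. TAGLN, TPM1, TPM2, ACTA2 and ACTG2 lie lower in all 3 edited libraries than in both wild-type libraries, as does CALD1 by a smaller gap, while CNN1 is highest in clone 2 and overlaps wild type in clone 6 R2.

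Calls for all of these genes but TAGLN depended on single libraries. The number of contractile genes called was 1 without wild-type R1, 1 without wild-type R2, 3 without clone 2, 1 without clone 6 R1 and 7 without clone 6 R2. The number of all genes called moved alike, being 500, 697, 1481, 1504 and 5919 in the same order, against 2857 with every library. Without clone 6 R2 the edited side holds only the 2 libraries that are nearly identical.

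The genes differed widely in level, and levels between genes are compared here as CPM per kilobase of exon. The length is the union of all annotated exons of a gene, 12.9 kilobases for TPM1 and 3.25 for TPM2. It can exceed the length of the transcripts made, and the order of genes depends on it. By this measure TPM2 was the most abundant at 111 CPM per kilobase in edited and 139 CPM per kilobase in wild-type libraries on average, followed by TPM1 at 36.5 and 55.7. In CPM the order was the other way, with 470 and 717 for TPM1 and 359 and 453 for TPM2. Per kilobase, TAGLN stood at 12.1 in edited and 45.6 in wild-type libraries. This placed it above CALD1 (16.3 in edited, 20.2 in wild-type libraries) in wild type and below it in the edited clones. In CPM, TAGLN (47.2 in edited, 179 in wild-type libraries) was below CALD1 (160 and 198) in both. The values that follow are per kilobase. CNN1 had 5.60 in edited and 2.86 in wild-type libraries. The muscle actins were rare, at 0.167 in edited and 0.455 in wild-type libraries for ACTA2 and 0.0293 and 0.379 for ACTG2, whereas the cytoplasmic actin gene ACTB averaged 1339.9 CPM per kilobase in edited and 1212 in wild-type libraries.

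Both actin genes were lower in every edited library. ACTA2 (ENSG00000107796, chromosome 10), which encodes the alpha actin of vascular smooth muscle, had 10 reads in clone 2 and 7 and 5 reads in clone 6 R1 and R2, against 30 and 24 reads in wild-type R1 and R2. ACTG2 (ENSG00000163017, chromosome 2), the gamma actin of gut smooth muscle, had 4 reads in clone 2 and 1 and 0 reads in clone 6 R1 and R2, against 35 and 23 in wild type. The groups did not overlap for either gene, and for both genes clone 2 was the highest of the edited libraries. Promoter stretches of both are shown because they hold paired CArG-like elements, and that of CNN1 as a window with none. A link between these elements and the changes was not tested. The sequences are from RefSeq on GRCh38.p14, run from 150 bases before the annotated start to the base before it, and have the CArG boxes in capitals.

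ACTG2, chr2:73892858-73893007, plus strand: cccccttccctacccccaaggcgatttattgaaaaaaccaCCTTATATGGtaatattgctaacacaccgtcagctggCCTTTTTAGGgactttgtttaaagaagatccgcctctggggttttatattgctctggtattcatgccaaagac
ACTA2, chr10:88952774-88952923, minus strand: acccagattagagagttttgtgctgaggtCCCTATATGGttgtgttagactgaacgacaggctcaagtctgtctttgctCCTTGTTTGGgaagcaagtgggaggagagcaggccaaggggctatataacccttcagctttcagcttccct
CNN1, chr19:11538701-11538850, plus strand: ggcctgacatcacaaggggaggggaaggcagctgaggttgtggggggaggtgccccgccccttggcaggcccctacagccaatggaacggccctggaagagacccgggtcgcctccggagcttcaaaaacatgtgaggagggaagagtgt

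The CArG box was searched as CC, 6 bases of A or T, then GG, a form that reads alike on both strands. The ACTG2 stretch holds 2 exact boxes, CCTTATATGG from position -110 and CCTTTTTAGG from position -73. The ACTA2 stretch, at 1 of its 2 RefSeq starts, holds 2 boxes with 1 mismatch in the core, CCCTATATGG from position -121 and CCTTGTTTGG from position -71. In all RefSeq promoter windows, from 250 bases before to 50 bases after the start, 454 of 35116 (1.29%) held an exact box, 11 (0.0313%) held 2 or more and 2854 (8.13%) held an exact box or one with 1 mismatch in the core. Mismatches in the flanking CC or GG were not searched. Promoter windows were matched for 6 of the 8 genes, with 11 windows in all, and not for TAGLN and MYL9. Of the remaining windows 1 of the 4 of CALD1 held a box with 1 mismatch in the core (CCTAAAGAGG from position -26). Those of CNN1 held none, nor did those of TPM1 and TPM2, which fell.

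On the log2 scale ACTA2 fell by 1.44 (SE 0.367, 95% interval -2.32 to -0.56, adjusted p = 0.0401), with means of 0.498 ± 0.170 CPM in edited (SD, n = 3) and 1.36 ± 0.0460 CPM in wild-type libraries (SD, n = 2). Its adjusted p was 0.239 without wild-type R1, 0.190 without wild-type R2, 0.0671 without clone 2 and 0.0958 without clone 6 R1. DESeq2 gave an adjusted p of 0.0765. ACTG2 fell by 3.61 (SE 0.679, 95% interval -5.23 to -1.98, adjusted p = 0.0155), with 5 reads in edited and 58 in wild-type libraries, a wild-type to edited ratio of 13.0 (95% counting interval 5.26 to 41.5). Its adjusted p was 0.144 without wild-type R1, 0.0898 without wild-type R2 and 0.0554 without clone 6 R1. These counts are small. The muscle actins are close in sequence to ACTB and ACTG1, and how reads were divided among actin genes was not tested. ACTB and ACTG1 had 50129 to 75923 reads in each edited library and 69799 to 86441 in each wild-type library. ACTA2 shares 380 exon bases with FAS on the opposite strand, and FAS itself had 17, 10 and 19 reads in the edited libraries against 107 and 66 in wild type. It also shares 516 exon bases with the antisense gene ACTA2-AS1. That gene had 4, 5 and 3 reads in the edited libraries against 6 and 2 in wild type. Whether counting used strand is not stated, so reads of these genes cannot be told apart where they overlap.

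TAGLN was the clearest of the filament-binding genes. TAGLN (ENSG00000149591, chromosome 11) encodes transgelin, a calponin-related actin-bundling protein long used as an early smooth muscle marker. It had 45.1 CPM in clone 2, and clone 6 R1 and R2 had 48.9 and 47.6 CPM, against 189 and 168 CPM in wild-type R1 and R2. The edited libraries lay within 4 CPM of one another and far below both wild-type libraries. The log2 fold change was -1.92 (SE 0.0937, 95% interval -2.14 to -1.69, adjusted p = 0.000346), and it ran from -2.004 to -1.83 with adjusted p-values up to 0.00884 over the 15 alternative settings. TAGLN shares 446 exon bases with PCSK7 on the opposite strand, which had 553 to 715 reads in edited and 1275 and 1279 in wild-type libraries. TAGLN2, the relative found in many cell types, had 391, 382 and 283 CPM in the edited libraries against 415 and 407 CPM in wild type (log2 fold change -0.22, adjusted p = 0.341). TAGLN therefore made up 10.3, 11.4 and 14.4% of the reads of the pair in the edited libraries, against 31.4 and 29.2% in wild type, and the 95% exact binomial intervals of the groups, which cover counting error only, did not overlap.

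CNN1 and CALD1, whose proteins bind actin and restrain the myosin ATPase, did not pass the test. CNN1 (ENSG00000130176, chromosome 19), which encodes the calponin of differentiated smooth muscle, had 22.2 CPM in clone 2, and clone 6 R1 and R2 had 17.7 and 8.54 CPM, against 8.74 and 7.77 CPM in wild type. The 2 nearly identical edited libraries were high, and clone 6 R2 lay between the wild-type values. The log2 fold change was 0.96 (SE 0.380, 95% interval 0.05 to 1.88, adjusted p = 0.129). With no filter on low counts it was 0.94 with an adjusted p of 3.57e-05, and without clone 6 R2 it was 1.26 with an adjusted p of 0.000166. CNN3, the acidic calponin of non-muscle cells, rose by 0.68 on the log2 scale (SE 0.0971, adjusted p = 0.00637, and 0.0789 without wild-type R1), with 345 to 364 CPM in edited libraries against 205 and 239 CPM in wild type.

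CALD1 (ENSG00000122786, chromosome 7), the caldesmon gene, makes a heavy smooth muscle form and a light form of other cells, which gene counts do not separate. It had 146 CPM in clone 2, and clone 6 R1 and R2 had 146 and 189 CPM, against 204 and 193 CPM in wild type. Clone 6 R2 came within 5 CPM of the lower wild-type library. Its log2 fold change was -0.31 (SE 0.134, 95% interval -0.63 to 0.01, adjusted p = 0.161), and -0.46 with an adjusted p of 0.000328 without clone 6 R2.

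Both tropomyosin genes of the set fell, with smaller fold changes than TAGLN. TPM1 (ENSG00000140416, chromosome 15) encodes alpha tropomyosin, whose splice forms serve muscle and non-muscle filaments alike. It had 518 CPM in clone 2, and clone 6 R1 and R2 had 502 and 389 CPM, against 713 and 722 CPM in wild type. The groups did not overlap, and clone 6 R2 was lowest. Its log2 fold change was -0.61 (SE 0.135, 95% interval -0.93 to -0.29, adjusted p = 0.0257). The adjusted p was 0.160 without wild-type R1, 0.151 without wild-type R2 and 0.0610 without clone 6 R1. TPM1 shares 2070 exon bases with the antisense gene TPM1-AS, which had 319 to 361 reads in edited and 617 and 818 in wild-type libraries.

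TPM2 (ENSG00000198467, chromosome 9), the beta tropomyosin gene, had 379 CPM in clone 2, and clone 6 R1 and R2 had 361 and 338 CPM, against 463 and 443 CPM in wild type. Here too the groups stood apart, by a small margin beside the level. The log2 fold change was -0.33 (SE 0.0874, 95% interval -0.54 to -0.12, adjusted p = 0.0438). The call was lost without any of wild-type R1 (adjusted p = 0.266), wild-type R2 (0.172), clone 2 (0.110) or clone 6 R1 (0.126), and with library totals in place of TMM (adjusted p = 0.0897). The tropomyosins of non-muscle cells, TPM3 and TPM4, were not called, with log2 fold changes of -0.29 (adjusted p = 0.0561) and -0.45 (adjusted p = 0.0792). For both genes every edited library also lay below both wild-type libraries. TPM3 had 505, 491 and 485 CPM in clone 2 and clone 6 R1 and R2, against 578 and 629 CPM in wild type. TPM4 had 473, 452 and 607 CPM in the same edited libraries, against 654 and 739 CPM in wild type. The log2 fold change of TPM4 was larger in size than that of TPM2.

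The balance of genes within families differed most for TAGLN, given above, and less for the tropomyosins and CNN1. TPM1 took 27.7, 27.8 and 21.4% of the reads of TPM1 to TPM4 in clone 2 and clone 6 R1 and R2, against 29.6 and 28.5% in wild type. TPM2 took 20.2, 19.98 and 18.6% of them in the edited libraries, against 19.2 and 17.5% in wild type, so that its share overlapped between groups. CNN1 took 3.44, 2.81 and 1.37% of the reads of CNN1 to CNN3 in the edited libraries, against 2.20 and 1.67% in wild type. Only for TAGLN and TPM1, of these 4 shares, did all edited libraries fall on 1 side of wild type.

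**Figure D2:**
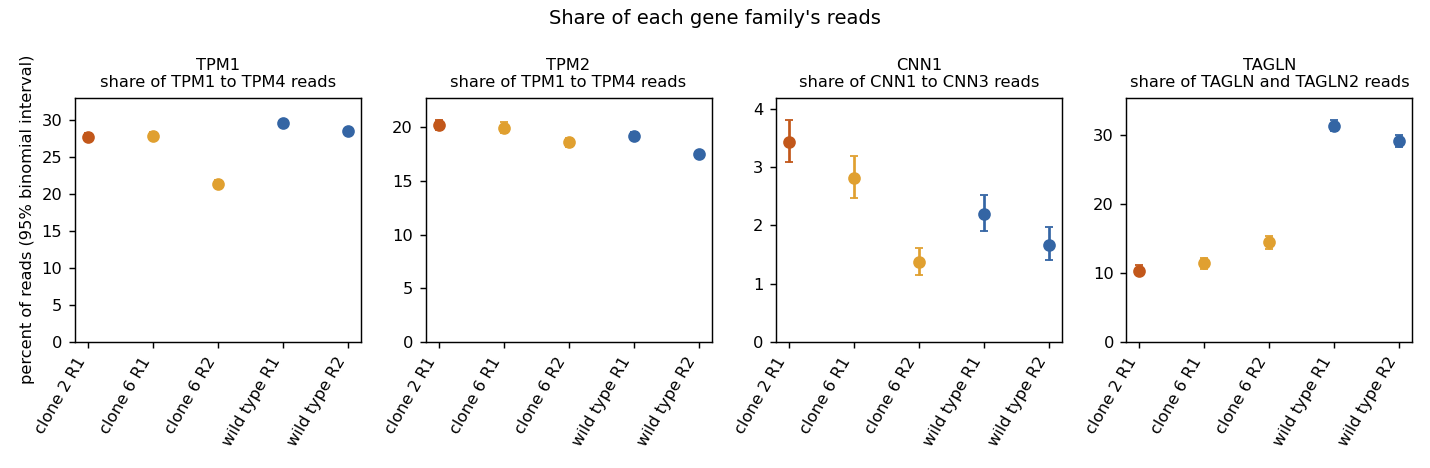
Share of a family's reads taken by TPM1, TPM2, CNN1 and TAGLN in each library, in percent, with 95% exact binomial intervals that cover counting error only and edited libraries left of wild type. The TAGLN share is 10.3 to 14.4% in edited libraries against 29.2 and 31.4% in wild type, while the other shares differ less.

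MYL9 (ENSG00000101335, chromosome 20), the regulatory myosin light chain of smooth muscle, had 1 read in clone 2, 0 in both clone 6 libraries and 0 in both wild-type libraries. A count of 0 allows up to 3 reads, which is 0.187 and 0.230 CPM in the clone 6 libraries and 0.139 and 0.165 CPM in wild type. A difference could not be detected at this depth. The non-muscle light chain gene MYL12B, by contrast, had 196 to 202 CPM in edited libraries and 145 and 153 CPM in wild type and rose by 0.41 on the log2 scale (SE 0.0804, adjusted p = 0.0173). This call was lost without wild-type R1 (adjusted p = 0.173), wild-type R2 (0.105), clone 2 (0.0830) or clone 6 R1 (0.0653), and on library totals (0.0608).

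Each clone was also set against wild type in a fit with 3 groups. Both clone comparisons share the wild-type libraries, and clone 2 has 1 library that is assumed to vary like the other groups. The near identity of clone 2 and clone 6 R1 bears on every value by clone. With clone 6 R1 or R2 left out, each clone has 1 library and the spread comes from the wild-type pair alone, so those p-values compare single libraries. In clone 6, 3 of the 7 genes fell, where 9.49% of all genes were called, 5.44% as lower and 4.05% as higher. These were TAGLN (log2 fold change -1.89, adjusted p = 0.00184), TPM1 (-0.69, adjusted p = 0.0474) and ACTG2 (adjusted p = 0.0181), which had 1 read in clone 6 against 58 in wild type, a wild-type to clone 6 ratio of 42.4 (95% counting interval 7.31 to 1703). Without wild-type R1 the adjusted p-values of TPM1 and ACTG2 were 0.297 and 0.112, and without wild-type R2 they were 0.279 and 0.0584. ACTA2 had a log2 fold change of -1.69 in clone 6 (adjusted p = 0.0726, and 0.0209 without clone 6 R1) and TPM2 one of -0.37 (adjusted p = 0.108, and 0.0150 without clone 6 R1 and 0.0352 without clone 6 R2). These fits without clone 6 R1 or R2 have the spread of the wild-type pair only, and they called 5197 and 3485 of all genes, against 1471 with every library.

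In clone 2, TAGLN was the 1 gene of the set that fell (log2 fold change -1.99, adjusted p = 0.00790), where 4.03% of all genes were called, 2.32% as lower and 1.71% as higher. The other values in clone 2 were -2.46 for ACTG2 (adjusted p = 0.136), -1.06 for ACTA2 (0.350), -0.47 for TPM1 (0.265), -0.44 for CALD1 (0.286), -0.26 for TPM2 (0.418) and 1.42 for CNN1 (0.117). Without clone 6 R1 the adjusted p-values in clone 2 were 0.0220 for ACTG2, 0.0153 for TPM1, 0.0173 for CALD1 and 0.000871 for CNN1. Without clone 6 R2 they were 0.0137, 0.00737, 0.00846 and 0.000149 in the same order. These fits too take their spread from the wild-type pair alone and called 3190 and 3512 of all genes, against 625 with every library.

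Between clone 6 and clone 2, 0 of the 7 genes passed the test by edgeR, with 0 at an unadjusted p below 0.05, and DESeq2 gave 0 by either count. Of all genes tested, 0% were called by edgeR, with 97 at an unadjusted p below 0.05, and 2 were called by DESeq2. The 95% intervals of the clone 6 minus clone 2 difference on the log2 scale were -0.28 to 0.48 for TAGLN, -0.68 to 0.24 for TPM1, -0.47 to 0.24 for TPM2 and -0.27 to 0.66 for CALD1. They were wider for CNN1 (-1.73 to 0.21), ACTA2 (-2.11 to 0.87) and ACTG2 (-5.75 to 0.43), so larger differences remain possible there. Without clone 6 R1 the CNN1 difference was -1.38 (adjusted p = 0.00985), which compares 1 library of each clone by the spread of the wild-type pair, and 881 of all genes were called there.

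**Figure D3:**
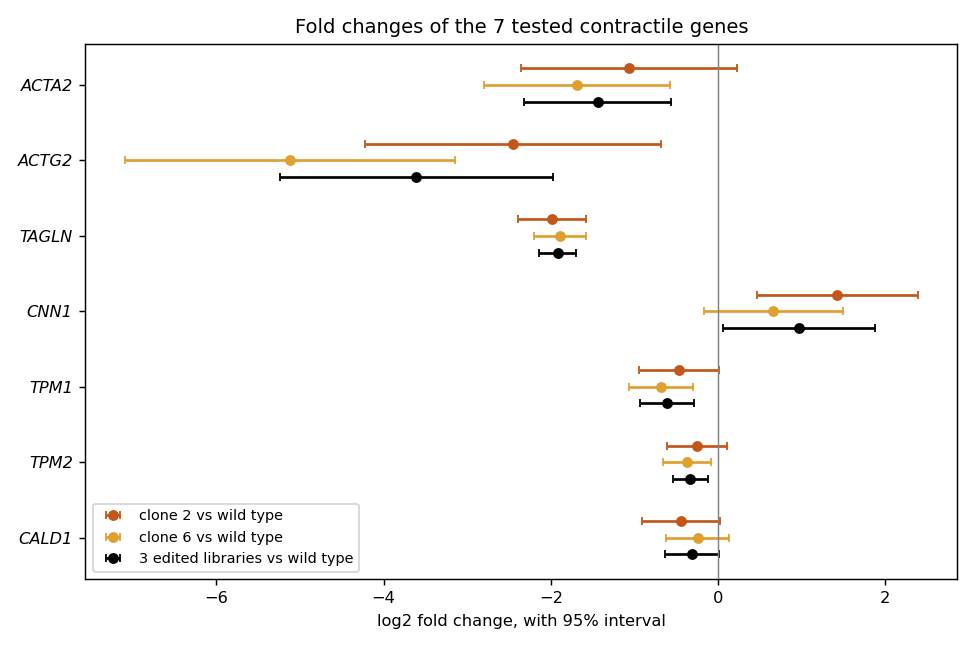
Log2 fold change against wild type of the 7 tested contractile genes in clone 2, in clone 6 and in all edited libraries, with 95% intervals from the edgeR fits. The TAGLN intervals reach up to -1.57 at most, those of TPM1, TPM2 and CALD1 stay between -1.07 and 0.13, those of ACTG2 are the widest, and those of CNN1 lie mostly above 0.

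Of 21 other smooth muscle genes 17 were tested, 1 rose and 1 fell, where 18.4% of all genes were called, and the median log2 fold change was -0.16. MYH11, the smooth muscle myosin heavy chain and the most specific marker of the mature cell, had 1.23, 1.23 and 0.686 CPM in the edited libraries against 1.48 and 1.05 CPM in wild type (log2 fold change -0.29, adjusted p = 0.621). The markers DES, PLN and KCNMB1 had 0 to 3 reads in every library. NEXN, which encodes the actin-binding protein nexilin, rose by 0.76 on the log2 scale (SE 0.133, adjusted p = 0.0121, but 0.122 and 0.0523 without wild-type R1 and R2), with 23.8 to 25.5 CPM in edited libraries against 13.1 and 16.0 CPM in wild type. The gene that fell was MYOCD. Without clone 6 R2, 6 genes of this list were higher and 6 lower.

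MYOCD encodes myocardin, the SRF coactivator of smooth and heart muscle. It had 47 reads in clone 2 and 26 and 48 reads in clone 6 R1 and R2, against 1006 and 662 reads in wild-type R1 and R2, or 2.67 ± 0.587 CPM in edited (SD, n = 3) and 41.5 ± 7.11 CPM in wild-type libraries (SD, n = 2). All 3 edited libraries stood far below both wild-type libraries. The log2 fold change was -3.94 (SE 0.207, 95% interval -4.44 to -3.45, adjusted p = 0.000355), between -4.11 and -3.76 over the 15 alternatives with adjusted p-values up to 0.00884. It was -4.04 in clone 6 (adjusted p = 0.00179) and -3.77 in clone 2 (adjusted p = 0.00798). MYOCD shares exon bases with an antisense gene, AC005358.2, which had 0 or 1 read in edited libraries and 12 and 4 in wild type.

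SRF itself and the MRTF coactivators did not pass the test. SRF had 28.7, 32.7 and 32.7 CPM in the edited libraries against 32.0 and 41.3 CPM in wild type (log2 fold change -0.22, 95% interval -0.56 to 0.12, adjusted p = 0.323). MKL1, which encodes MRTF-A, had a log2 fold change of -0.18 (95% interval -0.52 to 0.17, adjusted p = 0.438) and MKL2, for MRTF-B, one of -0.12 (95% interval -0.66 to 0.42, adjusted p = 0.740). The groups overlapped for all 3 genes. In the list of SRF, its coactivators and other regulators, 15 of 18 genes were tested, 2 rose and 3 fell, with a median of -0.22. Among all genes tested, 8.27% were called higher and 10.2% lower.

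Besides MYOCD, the genes of that list that fell were PRRX1 and ELK3. PRRX1, a homeobox gene of mesenchyme, had 3 reads in edited and 93 in wild-type libraries, a wild-type to edited ratio of 34.7 (95% counting interval 11.5 to 172, adjusted p = 0.00264). ELK3, an ETS factor that binds DNA together with SRF, fell by 0.85 on the log2 scale (SE 0.139, adjusted p = 0.00990, but 0.101 and 0.0852 without wild-type R1 and R2). KLF5, a zinc finger factor of smooth muscle, rose by 0.96 (SE 0.187, adjusted p = 0.0169, but 0.158 and 0.0884 without the same libraries), and CSRP2, a LIM protein of smooth muscle, rose by 0.59 (adjusted p = 0.0344). Without wild-type R1 or R2 the list held 0 higher and 2 lower genes, so the CSRP2 call was lost there too. Without clone 2 or without clone 6 R1 it held 1 higher gene, KLF5, and CSRP2 was again not called.

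**Figure D4:**
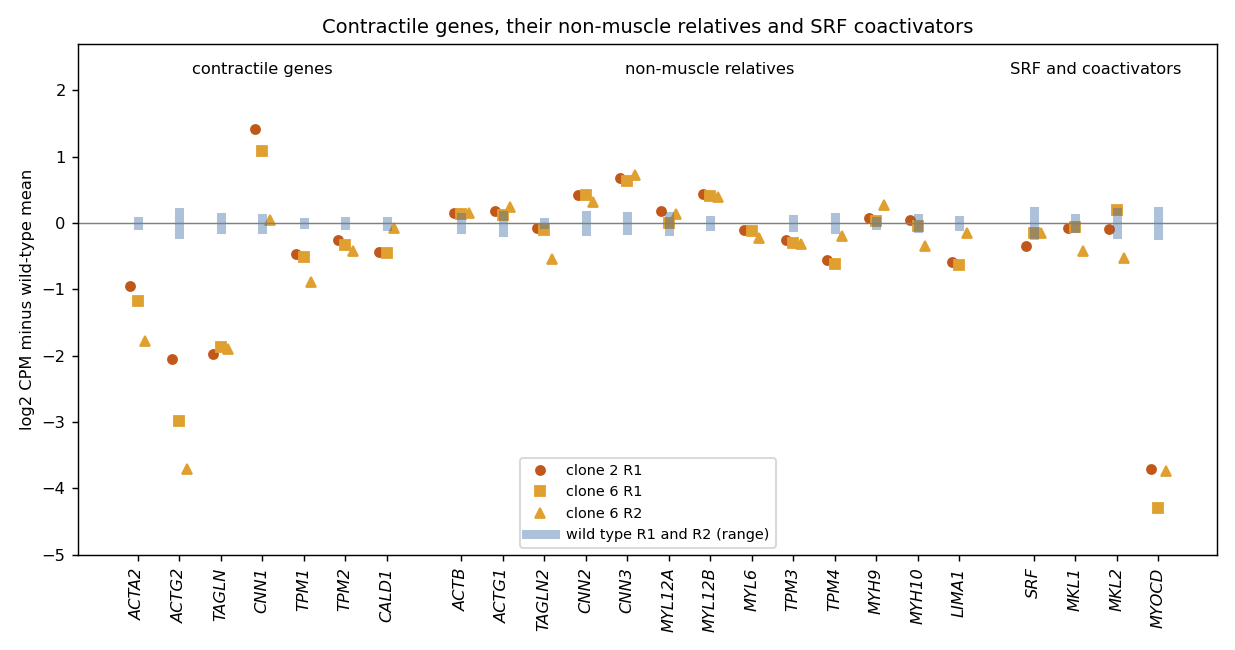
Log2 CPM of each edited library minus the wild-type mean for the 7 tested contractile genes, the 13 tested non-muscle relatives and the SRF group, with the range of the wild-type libraries as a bar. MYOCD, ACTG2 and TAGLN lie far below the wild-type range. ACTB, ACTG1, SRF, MKL1 and MKL2 lie within 1 log2 unit of 0 in each edited library, and so do the contractile genes TPM1, TPM2 and CALD1.

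Of 15 non-muscle relatives of the contractile genes, 13 were tested, and 3 rose and 0 fell by edgeR. Their median log2 fold change was 0.11. By edgeR 3 were lower at an unadjusted p below 0.05, TPM3, TPM4 and LIMA1, and DESeq2 called 2 as lower. Of all genes tested, 8.27% were called higher and 10.2% lower. In 5 of the 13 every edited library lay below both wild-type libraries, where 25.8% of all genes tested did. In 4 of the 13 every edited library lay above both, where 26.9% of all genes did. The risen genes were CNN3 and MYL12B, given above, and CNN2 (log2 fold change 0.38, SE 0.104, adjusted p = 0.0483, and 0.116 on library totals), whose call was lost without wild-type R1 (adjusted p = 0.313), wild-type R2 (0.0903), clone 2 (0.148) or clone 6 R1 (0.132). The cytoplasmic actins ACTB and ACTG1 had log2 fold changes of 0.15 (adjusted p = 0.360) and 0.18 (adjusted p = 0.316). Without wild-type R1 the list held 0 called genes, and without clone 6 R2 it held 3 higher and 3 lower.

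Of 20 genes of myosin phosphorylation and calcium handling 18 were tested, 1 rose and 3 fell, with a median of -0.01, where 18.4% of all genes were called. MYLK, which encodes myosin light chain kinase, had 208, 200.5 and 175 CPM in the edited libraries against 124 and 127 CPM in wild type, and rose by 0.63 on the log2 scale (SE 0.103, adjusted p = 0.00991, but 0.111 and 0.0884 without wild-type R1 and R2). CACNA1C, the pore subunit of the L-type calcium channel, had 2, 2 and 4 reads in the edited libraries against 35 and 28 in wild type, and fell by 3.09 (SE 0.386, adjusted p = 0.00403, and 0.0620 without wild-type R1). PPP1R14B, a phosphatase inhibitor, fell by 0.59 (adjusted p = 0.0154) and PPP1R12B, a myosin phosphatase subunit, by 0.50 (adjusted p = 0.0338). Both of these calls were lost when any library other than clone 6 R2 was left out, with adjusted p-values of 0.0742, 0.136, 0.0561 and 0.0508 for PPP1R14B and 0.217, 0.162, 0.125 and 0.0734 for PPP1R12B without wild-type R1, wild-type R2, clone 2 and clone 6 R1.

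The rapidly induced SRF targets respond to serum within minutes. Of 9 genes 8 were tested, 0 rose and 3 fell, where 8.27% of all genes were called higher and 10.2% lower. By edgeR 0 of the 8 were higher at an unadjusted p below 0.05, and DESeq2 called 0 of them as higher and 2 as lower. JUNB had 9.94, 12.7 and 13.0 CPM in the edited libraries against 24.1 and 33.0 CPM in wild type, and fell by 1.26 on the log2 scale (SE 0.188, adjusted p = 0.00716, and 0.0672 without wild-type R2). NR4A1 fell by 1.47 (adjusted p = 0.0215, but 0.125 without wild-type R2, 0.0670 without clone 2 and 0.0710 without clone 6 R1). EGR2 had 3 to 8 reads in edited libraries against 23 and 18 in wild type and fell by 1.70 (adjusted p = 0.0453, but 0.260, 0.202, 0.125 and 0.119 without wild-type R1, wild-type R2, clone 2 and clone 6 R1). The wild-type libraries differed from each other for FOS, with 23.4, 23.4 and 51.1 CPM in the edited libraries against 28.5 and 164 CPM in wild-type R1 and R2. Without wild-type R2, 0 genes of the list were called.

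TGF-beta, whose signal through SMAD proteins raises contractile gene transcription in many mesenchymal cells, had a mixed pattern among its ligands, receptors and SMADs. Of 16 genes 15 were tested, 3 rose and 4 fell, with a median of -0.20, where 8.27% of all genes were called higher and 10.2% lower. The coreceptor gene ENG had 41, 38 and 24 reads in the edited libraries against 382 and 248 reads in wild type, and fell by 2.75 on the log2 scale (SE 0.276, adjusted p = 0.00212). SMAD3, a signal transducer of the pathway, fell by 0.88 (SE 0.199, adjusted p = 0.0274, but 0.209, 0.0992 and 0.0616 without wild-type R1, wild-type R2 and clone 6 R1), with 72.9 to 114 CPM in edited libraries against 198 and 163 CPM in wild type. SKIL, a SMAD corepressor, fell by 0.90 (adjusted p = 0.0115, but 0.121 and 0.0660 without wild-type R1 and R2). LTBP1, which holds latent TGF-beta in the matrix, rose by 1.26 (adjusted p = 0.0209, but 0.0903 without wild-type R2 and 0.0504 without clone 6 R1). Without wild-type R1 the list held 1 higher and 1 lower gene, and without wild-type R2 it held 0 and 1.

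Contractile genes are also made by pericytes, fibroblasts and striated muscle, and some markers of these cells were called. Beside the counts for these lists, 8.27% of all genes tested were called higher and 10.2% lower. Of 8 pericyte markers 1 rose and 5 fell, but without wild-type R1 or R2 0 were higher and 2 lower. Their summed level was 198 to 310 CPM in edited libraries against 343 and 373 CPM in wild type. The potassium channel genes ABCC9 and KCNJ8 had 4 and 29 reads in edited against 468 and 1017 reads in wild-type libraries, while RGS5 had 65.1, 65.1 and 25.9 CPM in the edited libraries against 6.57 and 5.84 CPM in wild type (adjusted p = 0.00646, but 0.0807 and 0.0782 without wild-type R1 and R2). Of 8 fibroblast markers 5 were tested and 2 fell, FAP and COL3A1 (log2 fold changes -2.72 and -2.28, with an adjusted p of 0.0705 for COL3A1 without wild-type R1). Summed over the fibroblast list, clone 2 had 1735 CPM, clone 6 R1 had 1775 CPM and clone 6 R2, the lowest, had 587 CPM, against 2191 and 1960 CPM in wild type. The fibroblast markers LUM and DCN had 0 to 4 reads in every edited library and 0 or 1 in each wild-type library. Of 18 striated muscle genes 3 were tested, 5 had no reads, and TNNT1, a slow skeletal troponin gene, rose by 0.87 (adjusted p = 0.00319), with 82.6 to 94.9 CPM in edited libraries against 50.6 and 46.6 CPM in wild type.

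Of 8 endothelial markers 7 were found and 4 tested, and 3 fell, or 1 without wild-type R1 or R2. Among the 3 was TIE1, with 1.12 to 1.29 CPM in edited libraries against 19.3 and 19.0 CPM in wild type. TEK had a log2 fold change of -0.95 (adjusted p = 0.0308). Its adjusted p was 0.230 without wild-type R1, 0.101 without wild-type R2, 0.0630 without clone 2 and 0.0596 without clone 6 R1. Summed endothelial levels were 9.10 to 13.2 CPM in edited libraries against 37.0 and 41.7 CPM in wild type. The endothelial receptor gene FLT1 and the pericyte marker ANPEP had 0 reads in all edited libraries, with 20 and 11 reads of FLT1 and 18 and 21 of ANPEP in wild type. Both were called lower, but the adjusted p of FLT1 was 0.101 without wild-type R2, and that of ANPEP 0.103 and 0.109 without wild-type R1 and R2. The striated muscle regulator MYOG had 0 reads in every library. Of the 10 astrocyte markers 5 were tested, 2 rose and 1 fell, with a median log2 fold change of 0.10. Beside the endothelial and astrocyte counts, 8.27% of all genes tested were called higher and 10.2% lower. The part of other cell types, or of a shift between cell states, in the lower contractile transcripts was not tested.

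By the distance between log2 CPM profiles over the 5 libraries, each centred on its own mean and among genes averaging 2 or more on the log2 CPM scale, the genes nearest to TAGLN were NFATC4 (distance 0.200), GAREML (0.239) and NINL (0.258). The genes nearest to ACTA2 were MFI2, TCF4 and CCDC71L (0.224 to 0.244), and those nearest to ACTG2 were COL16A1, SLC16A3 and JAM3 (0.692 to 0.747). For TPM2 they were WDFY3, TGIF2 and NEK2 (0.0287 to 0.0520). ACTA2 and ACTG2 themselves average below that level. With 0 to 10 reads in each edited library, the prior count of 2 bears on their profiles and so on their nearest genes. Profiles of small changes lie near one another, so distances are not comparable between genes.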

How the data were processed

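Libraries were made from total RNA and run on Illumina HiSeq, per the labels. Trimmomatic, STAR, HTSeq and the build hg19 (GRCh37) are listed, without versions, per the submitters' processing notes. No source used here gives the annotation release or strand setting. The authors deposited raw counts per gene, as whole numbers. Of 63677 genes listed, 5772 had an empty value and were left out.

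Tests were run with edgeR 4.0.16 in R 4.3.3, with TMM scaling, filterByExpr by genotype (15500 genes kept), and the quasi-likelihood F test with Benjamini-Hochberg adjustment over all genes tested. Residual degrees of freedom were 3 by genotype and 2 by group. The standard error is the size of the log2 fold change divided by the square root of F. Log2 CPM used a prior count of 2. Exact 95% intervals and the floor of 3 reads cover counting error only. Exon lengths and overlaps came from GENCODE 29 by gene identifier, and promoters from RefSeq (GRCh38.p14). The procedure was tested on simulated counts.

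Alternatives in scaling were relative log expression (RLE) size factors, upper-quartile scaling and library totals, all in edgeR. DESeq2 1.42.0 was run with its own size factors and test. Further alternatives were no filter, a filter of 1 CPM in 2 libraries, a replicate block and ribosomal RNA genes left out. The rest were the ribosomal RNA share as covariate, clone 2 and clone 6 replicate 1 summed, and each library left out. The contractile genes and all gene lists were chosen with earlier results of these data known. The text names all contractile genes, MYH11, SRF, MKL1, MKL2, MYOCD, ACTB, ACTG1, up to 4 called genes with the largest fold change per list, and 3 nearest profiles per called contractile gene, of which those of TPM1 are not reported here. Other genes named, such as AQP4, CSRP2, FOS, LUM, MYOG, TAGLN2, TPM3 and TPM4, were chosen after their values were seen.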

Additional observations from a re-analysis of the deposited data

How the results depend on the processing

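Against wild type, 5 contractile genes were called in the fit of both edited clones as 1 group. With the share of ribosomal RNA as covariate this became 3, and it was 2 with clone 2 and clone 6 R1 summed, and 1 to 7 with 1 library left out. In clone 6 it was 3, with 5 under the covariate and 1 to 6 with 1 library left out. In clone 2 it was 1, with 3 under no filter, 2 by DESeq2, 3 under the covariate and 1 to 5 with 1 library left out. Between the clones it was 0, with 1 under the covariate (CNN1) and 0 to 1 with 1 library left out. The cause of these differences was not tested. Some signs of small changes reversed. MKL2 in the edited clones had a log2 fold change of -0.31 to 0.058 with 1 library left out, with 0.058 without wild-type R1 and 0.031 without clone 6 R2. Between the clones TAGLN had -0.021 on library totals and CALD1 ran from -0.0070 to 0.37 with 1 library left out, the lowest without clone 6 R2. Library numbers are shared between wild type and clone 6, but the replicate 1 minus replicate 2 differences correlated at 0.196 in 1 pair of groups, which does not show that they pair the samples. A replicate block left 5, 3, 1 and 0 contractile genes called in the 4 comparisons and moved the count of all genes called in the edited clones from 2857 to 4436. That count was 1520 with the summed library. Between the clones, all genes called were 0, but 99 with no filter, 413 with the covariate and 881 without clone 6 R1, where each clone has 1 library. In clone 6 against wild type they were 1471, and 3144 with no filter, 2368 with the block and 4474 with the covariate. In clone 2 they were 625, and 1878 with no filter, 954 by DESeq2, 1003 with the block and 2441 with the covariate. ACTA2, ACTG2, CACNA1C, EGR2, FLT1 and ANPEP each rest on under 70 reads over the wild-type libraries, so depth limits them.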
